A study of Mus musculus with 12 samples.

Results

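Voltage-gated calcium channels other than Cav1.3 were examined in the organ of Corti of mice without clarin-1, without clarin-2 or without both. The genes were 10 channel subunit genes chosen by symbol, namely the pore-forming subunit genes Cacna1a, Cacna1b, Cacna1c, Cacna1e, Cacna1g and Cacna1h, the auxiliary alpha2delta subunit genes Cacna2d1, Cacna2d2 and Cacna2d3, and the auxiliary beta subunit gene Cacnb4. They are 10 of 55348 genes counted in each library, and all 10 were among the 19052 genes that passed the filter on low counts.

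A voltage-gated calcium channel has a pore-forming alpha1 subunit that opens when the membrane depolarizes and lets calcium into the cell. The alpha1 gene sets the class of current: Cacna1c and Cacna1d encode L-type channels, Cacna1a P/Q-type, Cacna1b N-type and Cacna1e R-type channels. These need more depolarization to open than the T-type channels of Cacna1g and Cacna1h, which open near the resting potential. In the L-, P/Q-, N- and R-type channels, a cytosolic beta subunit and an extracellular alpha2delta subunit carry the pore to the membrane and tune its opening. In hair cells the L-type channel Cav1.3, encoded by Cacna1d, carries most of the calcium current that drives transmitter release, while auditory neurons use several of the other classes.

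RNA was sequenced at postnatal day 21 from 4 genotypes with 3 libraries each, 12 in all, after the stria vascularis and the modiolus had been dissected away. Clrn1-/- mice carry a deletion of Clrn1 exon 4 in all cells, made by crossing a floxed line with PGK-cre mice, and Clrn2-/- mice carry the clarinet allele of Clrn2, a nonsense mutation present in all cells. Clrn1-/-Clrn2-/- mice came from crossing both lines and carry both alleles, and wild-type mice carry neither. The wild-type mice came from separate breedings and were not littermates, so breeding and genotype cannot be told apart. How many ears or animals went into a library is not given in the sources used here, and p-values measure the spread between libraries.

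The depth on genes was 30008679 to 41049302 counts, and levels are given as CPM, the count of a gene scaled by the size of its library. Clrn1 fell from 25.8 ± 2.47 CPM (SD, n = 3) in wild-type to 2.83 ± 0.184 in Clrn1-/- and 2.31 ± 0.482 in double mutant mice. Clrn2, whose nonsense allele leaves the gene in place, stood at 2.72 ± 0.727 CPM in wild-type mice, 1.23 ± 0.172 in Clrn2-/- mice and 1.08 ± 0.138 in double mutant mice, and also 0.916 ± 0.107 in Clrn1-/- mice (log2 fold change -1.57, edgeR adjusted p = 7.41e-05), so its level does not separate the Clrn1-/- libraries from those with the Clrn2 allele. The libraries held all 20 listed hair cell marker genes and all 20 listed neuron marker genes, none at 0 in any genotype.

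The change found in every mutant was a lower level of Cacna1h, with means of 61.8% (Clrn1-/-), 61.7% (Clrn2-/-) and 54.7% (double mutants) of the wild-type level. Cacna1a and Cacna1b fell in Clrn2-/- and Clrn1-/-Clrn2-/- mice, Cacna2d1 rose in both genotypes without clarin-1, and Cacna1c and Cacnb4 rose in Clrn1-/- mice and fell in the double mutants. "Called" stands for a change of 1.5-fold or more whose adjusted p in edgeR's quasi-likelihood test did not exceed 0.05, while "rose" or "fell" is used of genes past the adjusted p alone.

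Against wild-type, 1 of the 10 genes, Cacna1h, was called in Clrn1-/- mice, where 7.22% of all tested genes were called. The count was also 1 in Clrn2-/- mice, with 2.66% of all genes called, and 1 in double mutant mice, with 9.9% called, each time Cacna1h. By the adjusted p alone, 5 of 10 passed in Clrn1-/- mice (3 up and 2 down, against 26.9% of all tested genes), 3 in Clrn2-/- mice (all 3 down, against 14.2%) and 8 in double mutant mice (1 up and 7 down, against 37.0%). The libraries of mutant and wild-type mice did not overlap for 6 of 10 genes in Clrn1-/- (40.2% of all genes), 4 in Clrn2-/- (29.0%) and 8 in double mutant mice (48.2%). The median log2 fold change of the 10 genes was 0.08, -0.13 and -0.26 in Clrn1-/-, Clrn2-/- and Clrn1-/-Clrn2-/- mice, beside -0.0031, -0.0025 and 0.001 over all tested genes. The same 3 wild-type libraries enter all 3 comparisons, so a shift in them would move all 3.

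**Figure D1:**
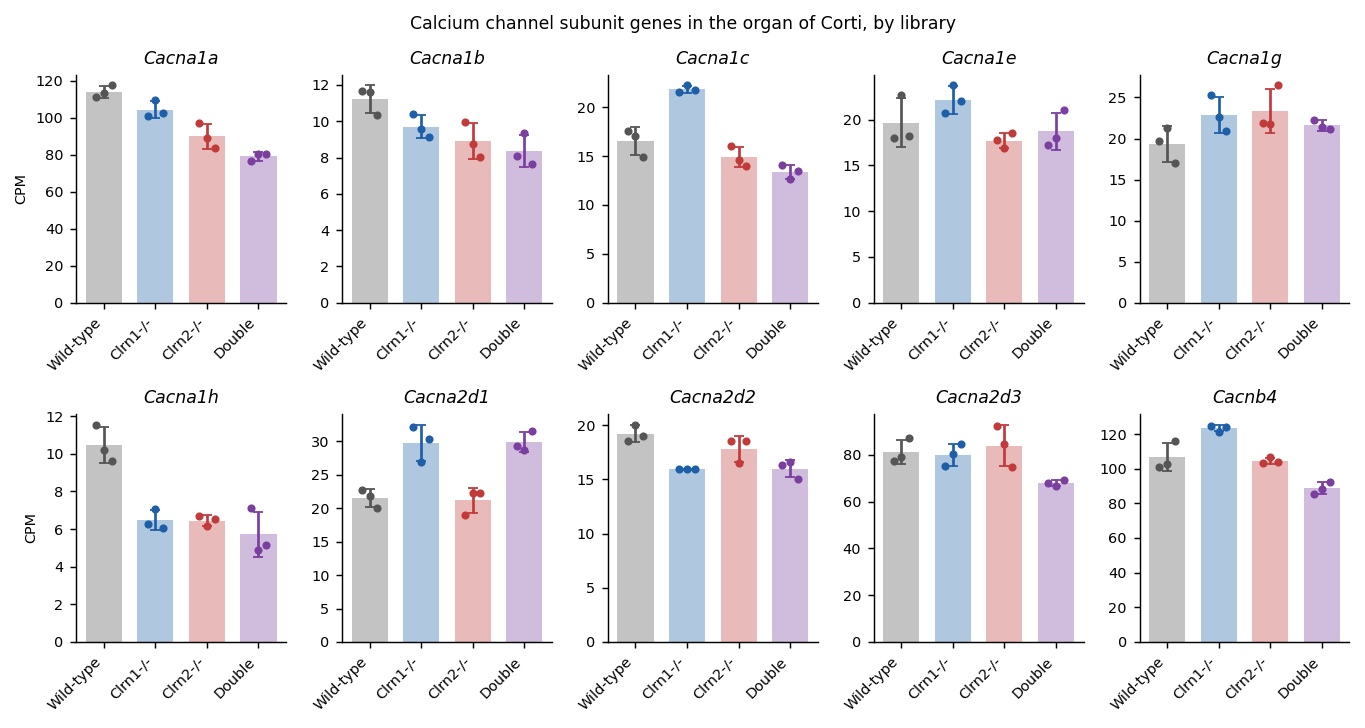
CPM of each of the 10 genes, with a bar for the mean, an error bar for the SD and a point for each of the 3 libraries per genotype, where Double stands for Clrn1-/-Clrn2-/-. Cacna1h lies below wild-type in all 9 mutant libraries, and Cacna2d1 is high in the 6 libraries without clarin-1.

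Levels between genes were compared per kilobase of annotated exon, which treats all exons of a gene as transcribed. In wild-type mice Cacnb4 stood highest at 11.9 ± 0.903 CPM per kb (SD, n = 3), followed by Cacna1a at 9.99 ± 0.283 and Cacna2d3 at 9.31 ± 0.585, and the libraries of Cacna1a and Cacna2d3 overlapped. A wide step then led down to Cacna2d2 at 2.42 ± 0.0986, Cacna1g at 1.91 ± 0.215 and Cacna2d1 at 1.74 ± 0.108, of which the last pair overlapped. Cacna1b at 1.13 ± 0.0771 and Cacna1h at 1.07 ± 0.1 overlapped as well, and so did the lowest pair, Cacna1c at 0.779 ± 0.0676 and Cacna1e at 0.778 ± 0.106.

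The order moved with genotype at both ends of the lower range. Cacna2d1 ranked 6 of 10 in wild-type and Clrn2-/- mice but 4 of 10 in Clrn1-/- and Clrn1-/-Clrn2-/- mice, at 2.40 ± 0.216 and 2.40 ± 0.118 CPM per kb, and in Clrn1-/- mice its libraries overlapped with those of Cacna1g, the next gene down. Cacna1h ranked 8 in wild-type mice and 10, the lowest, in each of the 3 mutants, although its libraries overlapped with those of both Cacna1c and Cacna1e in Clrn2-/- and in double mutant mice. The 3 highest genes were Cacnb4, Cacna1a and Cacna2d3 in every genotype, and in Clrn2-/- and Clrn1-/-Clrn2-/- mice Cacna2d3 lay above Cacna1a with no overlap.

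**Figure D2:**
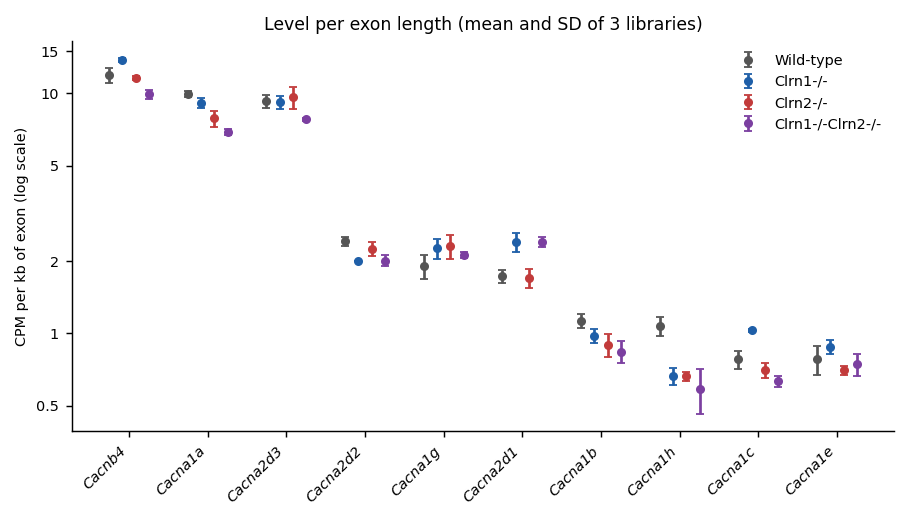
Level of the 10 genes in CPM per kilobase of exon on a log axis, as mean and SD of the 3 libraries of each genotype, ordered by the wild-type mean. Cacnb4, Cacna1a and Cacna2d3 lie between 6.93 and 13.8, and the other genes at 2.42 or below.

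Among the pore-forming genes, Cacna1c, which encodes the L-type channel Cav1.2 of heart, smooth muscle and neurons, lies on chromosome 6 from 118587240 to 119196418 on the minus strand (GRCm38). It was at 17.6, 17.04 and 14.9 CPM in the wild-type libraries and at 21.5, 22.2 and 21.8 CPM in those of Clrn1-/- mice. Clrn2-/- libraries held 16.1, 14.6 and 14.0 CPM and Clrn1-/-Clrn2-/- libraries 14.1, 12.6 and 13.5 CPM. All Clrn1-/- libraries were above every other library, and all double mutant libraries were below wild-type, while Clrn2-/- overlapped with both.

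The log2 fold change of Cacna1c against wild-type was 0.41 ± 0.07 (SE) in Clrn1-/- mice (edgeR adjusted p = 0.000762), -0.15 ± 0.08 in Clrn2-/- mice (edgeR adjusted p = 0.228) and -0.30 ± 0.08 in the double mutants (edgeR adjusted p = 0.0055). Set against Clrn1-/- mice, the double mutants were lower, with a log2 difference of -0.70 ± 0.08 (edgeR adjusted p = 4.15e-06), which was called. Cacna1c was also 1.465-fold higher in Clrn1-/- than in Clrn2-/- mice (log2 difference 0.55 ± 0.07, edgeR adjusted p = 0.000101), short of the 1.5-fold minimum. Leaving out Clrn2-/- replicate 1 took that difference to 0.60 and past the minimum.

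Smooth muscle cells and pericytes, which express Cacna1c, were followed by 12 marker genes, all of them tested and none at 0 in any genotype. Their summed level ranged from 428 to 487 CPM in wild-type, 390.0 to 453 in the Clrn1-/-, 357 to 368 in the Clrn2-/- and 456 to 464 in double mutant libraries. In Clrn1-/-, Clrn2-/- and double mutant mice 7, 7 and 3 of the 12 passed the adjusted p downwards and 0, 0 and 3 upwards. The share of all tested genes past it in either direction was 26.9%, 14.2% and 37.0%. The markers' median log2 fold changes were -0.29, -0.33 and 0.06. The summed markers were thus not above wild-type in Clrn1-/- mice, where Cacna1c was highest, and at 98.6% of wild-type in the double mutants, where it was lowest, and their part in the Cacna1c result was not tested.

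Cacna1a encodes the P/Q-type channel Cav2.1 of presynaptic terminals and lies on chromosome 8 from 84388440 to 84640246 on the plus strand. The wild-type libraries held 111, 114 and 118 CPM and the Clrn1-/- libraries 101, 110 and 103 CPM. Levels were 97.2, 89.1 and 83.55 CPM in Clrn2-/- and 76.5, 80.4 and 80.6 CPM in double mutant libraries. The 4 genotypes formed a descending series, wild-type, Clrn1-/-, Clrn2-/- and double mutants, in which no genotype overlapped with the next.

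The fall of Cacna1a passed the test in Clrn2-/- mice (log2 fold change -0.34 ± 0.05, edgeR adjusted p = 0.000391) and in the double mutants (-0.53 ± 0.05, edgeR adjusted p = 1.14e-06), with a value in Clrn1-/- mice of -0.13 ± 0.05 (edgeR adjusted p = 0.0818). The double mutants differed from Clrn1-/- mice by -0.40 ± 0.05 (edgeR adjusted p = 3.15e-05) and from Clrn2-/- mice by -0.18 ± 0.05 (edgeR adjusted p = 0.0168). Without Clrn2-/- replicate 1 or Clrn1-/-Clrn2-/- replicate 1, the latter difference missed the threshold (edgeR adjusted p = 0.0694 and 0.0538). The difference between Clrn1-/- and Clrn2-/- mice of 0.215 ± 0.052 (edgeR adjusted p = 0.00954) missed it without Clrn1-/- replicate 2 (edgeR adjusted p = 0.0575). The Clrn1-/- value against wild-type passed it with unstranded counts (edgeR adjusted p = 0.0327) and without Clrn2-/- replicate 1 (edgeR adjusted p = 0.0296).

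Cacna1b, for the N-type channel Cav2.2 that also serves presynaptic release, lies on chromosome 2 from 24603887 to 24763152 on the minus strand. Its libraries held 11.7, 11.6 and 10.3 CPM in wild-type, 10.4, 9.60 and 9.12 in the Clrn1-/-, 9.98, 8.72 and 8.04 in the Clrn2-/- and 8.07, 9.33 and 7.63 in double mutant mice. The double mutants and Clrn2-/- mice lay below all wild-type libraries, whereas Clrn1-/- overlapped with wild-type by 1 library. The log2 fold changes were -0.21 ± 0.10 in Clrn1-/- (edgeR adjusted p = 0.131), -0.33 ± 0.10 in Clrn2-/- (edgeR adjusted p = 0.0374) and -0.43 ± 0.10 in double mutant mice (edgeR adjusted p = 0.00318).

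The Clrn2-/- value of Cacna1b was close to the threshold. It missed it with library size alone (edgeR adjusted p = 0.0581), with both genotypes fitted alone (0.0808) and without Clrn1-/- replicate 2, Clrn2-/- replicate 2 or 3, or wild-type replicate 1 or 2 (edgeR adjusted p = 0.0539 to 0.16).

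Neuron markers moved in the same direction as these presynaptic channel genes. The 20 neuron markers summed to 15080 to 16590 CPM in wild-type, 13790 to 14530 in the Clrn1-/-, 13410 to 15100 in the Clrn2-/- and 10680 to 10910 in double mutant libraries. By the adjusted p, 9, 6 and 15 of the 20 were lower and 2, 1 and 2 higher than in wild-type mice, in the order Clrn1-/-, Clrn2-/- and double mutants. The share of all tested genes past it in either direction was 26.9%, 14.2% and 37.0%. The median log2 fold changes of the neuron markers were -0.18, -0.09 and -0.42. In the double mutants the summed markers were at 68.6 ± 0.757% of the wild-type mean (SD, n = 3), Cacna1a at 69.4 ± 2.03% and Cacna1b at 74.4 ± 7.89%. In Clrn2-/- mice the markers were at 89.7 ± 5.63%, Cacna1a at 78.8 ± 6.02% and Cacna1b at 79.5 ± 8.78%. In Clrn1-/- mice the same 3 measures were at 90.7%, 91.5% and 86.5%. In libraries of whole tissue, fewer cells of a type and less RNA per cell cannot be told apart, and the part of the neuron content in these results was not tested.

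The other marker lists are given by their summed CPM, as the mean percent of the wild-type sum for Clrn1-/-, Clrn2-/- and double mutant mice in turn. Since a few abundant genes can set a sum, the members past the adjusted p are given too. Among all tested genes, 26.9%, 14.2% and 37.0% passed it in either direction. Hair cell markers summed to 90.9%, 103.7% and 95.8%, with 3, 7 and 9 of 20 past it upwards and 7, 1 and 6 downwards, and in the double mutants their median log2 fold change was 0.12 although the sum was below wild-type. Schwann cell and myelin markers summed to 98.1%, 100.7% and 96.1%, with 6, 1 and 5 of 12 upwards and 1, 0 and 2 downwards and medians of 0.13, 0.06 and 0.08. Members of both lists moved both ways in the double mutants.

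Supporting cell markers summed to 114.5%, 119.5% and 174.1%, with 9, 5 and 12 of 15 upwards and 3, 2 and 1 downwards. Their median log2 fold changes were 0.19, 0.17 and 0.40, a smaller rise in the double mutants than the sum gives. Both measures were highest in the genotype in which 7 of the 10 channel genes fell. The list holds Otog, Otogl, Tectb and Ceacam16, which the paper names among hearing-related genes dysregulated in clarin-deficient mice. Fibroblast markers summed to 71.4%, 69.8% and 100.4%, but 5, 1 and 6 of 10 passed upwards and 3, 2 and 2 downwards, and their medians of 0.21, 0.02 and 0.26 were above 0 in all 3 mutants. Skeletal muscle markers summed to 83.4%, 93.4% and 70.9%, with 2, 2 and 2 of 13 tested upwards and 3, 1 and 4 downwards, and medians of -0.28, 0.19 and -0.52. This list shares Pvalb with the hair cell list, and the paper stains auditory neurons and hair cells for parvalbumin. It also holds Ryr1, which the paper reports as upregulated in all clarin mutants, so its sum is not specific to muscle. The sum was below wild-type and the median above 0 for fibroblasts in both single mutants, for skeletal muscle in Clrn2-/- mice, for Schwann cells in Clrn1-/- and double mutant mice, and for hair cells in the double mutants. The part of these shifts in the channel results was not tested.

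**Figure D3:**
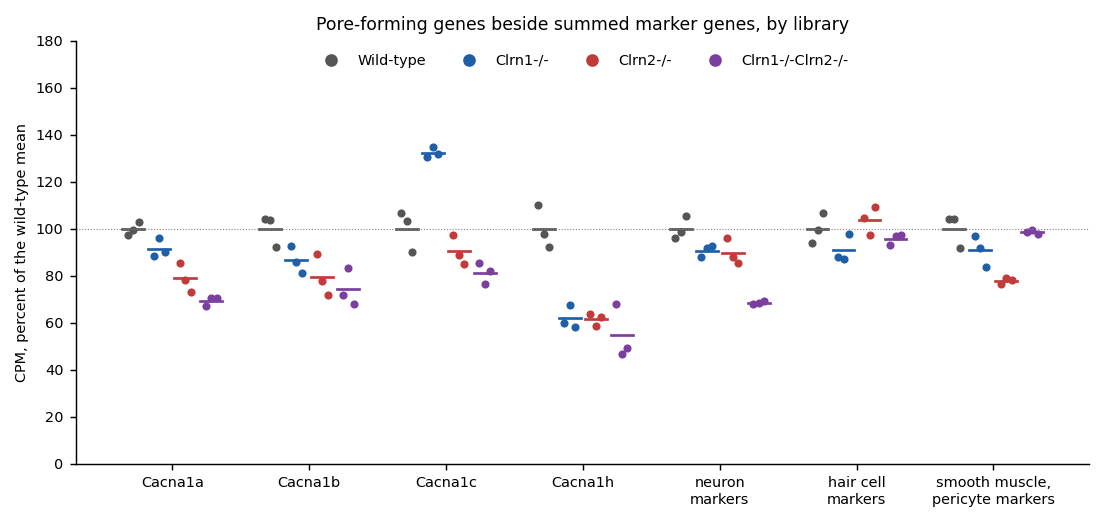
CPM of Cacna1a, Cacna1b, Cacna1c and Cacna1h and the summed CPM of neuron, hair cell, and smooth muscle and pericyte marker genes, in percent of the wild-type mean, with a point per library and a line at the mean of each genotype. In the double mutants the neuron markers lie at 68.6% and Cacna1a at 69.4%, and the summed hair cell markers at 95.8%, with 9 of 20 of these past the adjusted p upwards and 6 downwards.

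Cacna1e encodes the R-type channel Cav2.3 and lies on chromosome 1 from 154390731 to 154884501 on the minus strand. It ranged from 16.9 to 23.7 CPM over all 12 libraries, and every mutant overlapped with wild-type. Its log2 fold changes against wild-type were 0.18 ± 0.09, -0.15 ± 0.10 and -0.06 ± 0.10 in Clrn1-/-, Clrn2-/- and Clrn1-/-Clrn2-/- mice (edgeR adjusted p = 0.187, 0.344 and 0.642). Between the single mutants it was higher in Clrn1-/- by 0.32 ± 0.09 (edgeR adjusted p = 0.0269), a difference that missed the threshold without Clrn1-/- replicate 2 or 3 or Clrn2-/- replicate 1 or 2 (edgeR adjusted p = 0.0551 to 0.124). Without wild-type replicate 2, the highest of its genotype, the Clrn1-/- value against wild-type was 0.30 (edgeR adjusted p = 0.024). Leaving out 1 library moved the Clrn2-/- value between -0.20 and -0.03.

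Both T-type genes gave different pictures. Cacna1h, for the channel Cav3.2 that is known from sensory neurons, lies on chromosome 17 from 25374285 to 25433783 on the minus strand. It was at 11.6, 10.2 and 9.64 CPM in wild-type, 6.26, 7.06 and 6.08 in the Clrn1-/-, 6.67, 6.15 and 6.55 in the Clrn2-/- and 7.11, 4.90 and 5.16 in double mutant libraries, from 165 to 411 counts each. All 9 mutant libraries lay below all 3 wild-type libraries, and the mutants overlapped with each other.

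The log2 fold change of Cacna1h was -0.69 ± 0.12 in Clrn1-/- mice (edgeR adjusted p = 0.000571), -0.69 ± 0.12 in Clrn2-/- mice (edgeR adjusted p = 0.00121) and -0.88 ± 0.12 in the double mutants (edgeR adjusted p = 3.9e-05). Clrn1-/- and Clrn2-/- mice differed by 0.0028 ± 0.13, and the double mutants differed from them by -0.18 ± 0.13 each (edgeR adjusted p = 0.31 against Clrn1-/- and 0.329 against Clrn2-/-). Without Clrn1-/-Clrn2-/- replicate 1, the highest of the double mutants, both differences passed, at -0.37 each (edgeR adjusted p = 0.0249 and 0.0305). The interaction, the double mutants' change minus the sum of both single changes, was 0.51 ± 0.18 (edgeR adjusted p = 0.059). Its sign is positive because the fall in the double mutants was smaller than that sum. Leaving out 1 library moved it between 0.32 and 0.59, and it was called at 0.59 without Clrn1-/-Clrn2-/- replicate 2. It also passed the adjusted p without the filter (edgeR adjusted p = 0.0172), without wild-type replicate 3 (0.0407) and with a replicate block (0.0479). Summed neuron markers were at 90.7 ± 2.54% of wild-type in Clrn1-/- and 89.7 ± 5.63% in Clrn2-/- mice, where Cacna1h was at 61.8 ± 5.004% and 61.7 ± 2.59%.

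The tested genes whose log2 CPM followed Cacna1h most closely over the 12 libraries were Fam81a (Pearson r = 0.96), Cpt1c (r = 0.95) and Wdfy1 (r = 0.95), out of 15406 genes whose mean level reached 1 CPM. They were picked as the highest values, and the libraries share genotypes, so these are descriptions. Fam81a was at 21.1 ± 1.20 CPM in wild-type, 12.4 ± 0.754 in the Clrn1-/-, 14.0 ± 0.105 in the Clrn2-/- and 12.3 ± 1.42 in double mutant mice. After subtracting each genotype's mean, r was 0.95 for Fam81a, 0.85 for Cpt1c and 0.65 for Wdfy1.

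Cacna1g, for the T-type channel Cav3.1, lies on chromosome 11 from 94408391 to 94474198 on the minus strand. It was at 19.7, 21.3 and 16.98 CPM in wild-type, 25.2, 22.6 and 20.9 in the Clrn1-/-, 21.9, 21.8 and 26.5 in the Clrn2-/- and 22.3, 21.4 and 21.1 in double mutant libraries. The Clrn2-/- libraries lay above wild-type and the other mutants overlapped with it. Its values of 0.24 ± 0.09, 0.28 ± 0.09 and 0.16 ± 0.09 against wild-type, in the same order, had the opposite sign to those of Cacna1h and did not pass the test (edgeR adjusted p = 0.0647, 0.0597 and 0.2). The single mutants were close to the threshold and passed it with library size alone (edgeR adjusted p = 0.0414 and 0.0446), without the filter, and without wild-type replicate 2 (edgeR adjusted p = 0.0294 and 0.0321). The Clrn1-/- value also passed without Clrn1-/- replicate 3 or Clrn2-/- replicate 3, and the Clrn2-/- value without Clrn1-/- replicate 1 or Clrn2-/- replicate 1 and by DESeq2.

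**Figure D4:**
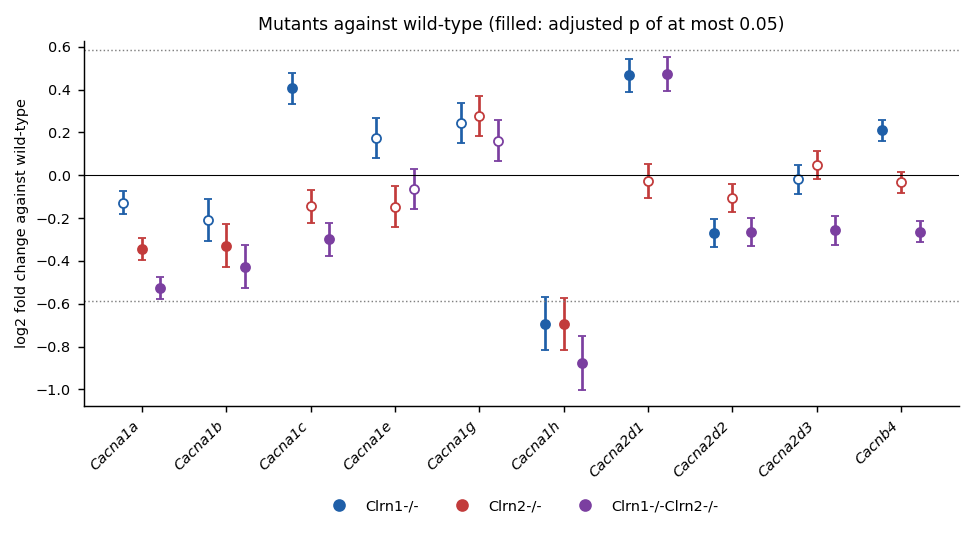
Log2 fold change against wild-type with its SE for the 10 genes in Clrn1-/-, Clrn2-/- and Clrn1-/-Clrn2-/- mice, filled where the edgeR adjusted p was at most 0.05, with dotted lines at a change of 1.5-fold. Cacna1h is the gene past the lower line in all 3 mutants, at -0.69, -0.69 and -0.88, and no gene is past the upper line.

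The alpha2delta genes differed from each other. Cacna2d1 encodes the alpha2delta-1 subunit, the main binding site of the gabapentinoid drugs, and lies on chromosome 5 from 15934691 to 16374511 on the plus strand. It was at 22.7, 21.9 and 20.1 CPM in wild-type and 18.96, 22.25 and 22.2 CPM in Clrn2-/- libraries. The libraries of Clrn1-/- mice held 32.1, 26.9 and 30.3 CPM and those of Clrn1-/-Clrn2-/- mice 29.3, 28.7 and 31.5 CPM. All 6 libraries without clarin-1 lay above all 6 libraries with it.

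Cacna2d1 rose by 0.47 ± 0.08 on the log2 scale in Clrn1-/- mice (edgeR adjusted p = 0.000402) and by 0.47 ± 0.08 in double mutant mice (edgeR adjusted p = 0.000187), with -0.03 ± 0.08 in Clrn2-/- mice (edgeR adjusted p = 0.869). Clrn1-/- mice exceeded Clrn2-/- mice by 0.49 ± 0.08 (edgeR adjusted p = 0.000454) and the double mutants exceeded them by 0.50 ± 0.08 (edgeR adjusted p = 0.000259). The double mutants and Clrn1-/- mice differed by 0.0055 ± 0.08, and the interaction was 0.03 ± 0.11 (edgeR adjusted p = 0.882). Each of these increases was about 1.4-fold, a ratio of 1.38 to 1.41, and below the minimum of 1.5-fold.

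Cacna2d2, for the alpha2delta-2 subunit that is affected in ducky mice, lies on chromosome 9 from 107399612 to 107529343 on the plus strand. It was at 18.5, 20.05 and 19.03 CPM in wild-type, 16.0, 15.9 and 15.9 in the Clrn1-/-, 18.5, 16.5 and 18.5 in the Clrn2-/- and 16.3, 16.6 and 15.1 in double mutant libraries. The same genotypes in which Cacna2d1 was high were thus below wild-type for Cacna2d2 without overlap. The log2 fold change was -0.27 ± 0.07 in Clrn1-/- (edgeR adjusted p = 0.00654) and -0.27 ± 0.07 in double mutant mice (edgeR adjusted p = 0.00455), while Clrn2-/- mice were at -0.105 ± 0.065 (edgeR adjusted p = 0.319) and the single mutants differed by -0.16 ± 0.07 (edgeR adjusted p = 0.0987).

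Cacna2d3, for the alpha2delta-3 subunit that is known from hearing and pain studies in mice, lies on chromosome 14 from 28904943 to 29721864 on the minus strand. It was at 77.5, 79.0 and 87.0 CPM in wild-type, 75.1, 80.5 and 84.5 in the Clrn1-/-, 92.4, 84.8 and 74.6 in the Clrn2-/- and 67.8, 66.8 and 69.1 in double mutant libraries. The double mutants lay below all 9 other libraries. Their log2 difference was -0.26 ± 0.07 against wild-type (edgeR adjusted p = 0.00717), -0.24 ± 0.07 against Clrn1-/- (edgeR adjusted p = 0.0143) and -0.30 ± 0.07 against Clrn2-/- mice (edgeR adjusted p = 0.00351), whereas the single mutants were at -0.02 ± 0.07 and 0.05 ± 0.07 against wild-type (edgeR adjusted p = 0.868 and 0.699). Without Clrn1-/- replicate 3 the difference from Clrn1-/- mice had an edgeR adjusted p of 0.0548. The interaction of Cacna2d3 was -0.29 ± 0.10 (edgeR adjusted p = 0.0513), and it passed under 5 of the other settings, among them library size alone (edgeR adjusted p = 0.0189), and without Clrn1-/- replicate 1, Clrn2-/- replicate 3 or wild-type replicate 3.

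RefSeq start sites were matched for 7 of the 10 genes, with 11 windows. The set of start sites used here held no entry for Cacna1a, Cacna1g and Cacna1h. The 250 bases before the start are shown for the gene that rose in the double mutants, Cacna2d1, and for a pair that fell there, Cacna2d3 and Cacna1b, each of which has 1 window that ends where the annotated gene begins. They come from RefSeq on GRCm38.p6 and are written 5′ to 3′ on the gene's strand, with capitals for the GC box GGGCGG on either strand, overlapping matches included.
Cacna2d1, chr5:15934441-15934690, plus strand: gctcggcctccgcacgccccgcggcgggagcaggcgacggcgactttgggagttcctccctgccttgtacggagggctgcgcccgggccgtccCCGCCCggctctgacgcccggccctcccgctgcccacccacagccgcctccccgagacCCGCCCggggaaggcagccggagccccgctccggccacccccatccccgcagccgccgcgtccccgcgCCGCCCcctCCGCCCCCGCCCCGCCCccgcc
Cacna2d3, chr14:29721865-29722114, minus strand: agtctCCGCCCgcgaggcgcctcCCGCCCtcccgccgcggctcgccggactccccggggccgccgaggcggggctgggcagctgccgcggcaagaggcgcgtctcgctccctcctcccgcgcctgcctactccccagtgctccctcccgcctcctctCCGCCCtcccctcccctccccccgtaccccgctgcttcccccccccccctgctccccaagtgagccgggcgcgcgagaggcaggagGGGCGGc
Cacna1b, chr2:24763153-24763402, minus strand: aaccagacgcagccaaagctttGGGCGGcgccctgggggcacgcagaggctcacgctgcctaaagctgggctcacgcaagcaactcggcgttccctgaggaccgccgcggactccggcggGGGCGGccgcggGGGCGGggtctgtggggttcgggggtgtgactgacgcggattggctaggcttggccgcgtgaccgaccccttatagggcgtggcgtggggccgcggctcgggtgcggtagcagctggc

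All 3 windows were rich in G and C, with 82.4% for Cacna2d1, 80.0% for Cacna2d3 and 72.0% for Cacna1b beside a median of 52.4% over 32851 promoter windows of the same length. The GC box occurred 6 times before Cacna2d1, 4 times before Cacna2d3 and 3 times before Cacna1b, and 32.7% of all windows held it at least 1 time. The TATA box letters TATAAA, held by 12.4% of all windows, were in none of the 11 windows. The core TGACG of the cAMP response element, held by 17.8% of all windows on either strand, occurred 1 time each before Cacna2d1 and Cacna1b.

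Cacnb4, for the beta4 subunit that is affected in lethargic mice, lies on chromosome 2 from 52428320 to 52676831 on the minus strand. It was at 101, 103 and 116 CPM in wild-type, 125, 121 and 124 in the Clrn1-/-, 103, 106.5 and 103.6 in the Clrn2-/- and 85.6, 88.4 and 92.5 in double mutant libraries. Clrn1-/- libraries were above all 9 others, and double mutant libraries were below all 9 others. Reads on the opposite strand, where 3 annotated genes overlap with it, came to 3.26% to 5.07% of its stranded counts. Cacnb4 rose by 0.21 ± 0.05 in Clrn1-/- mice (edgeR adjusted p = 0.00486) and fell by 0.26 ± 0.05 in the double mutants (edgeR adjusted p = 0.000541), with -0.03 ± 0.05 in Clrn2-/- mice (edgeR adjusted p = 0.724). Against Clrn1-/- mice the double mutants were 28.0% lower (log2 difference -0.47 ± 0.05, edgeR adjusted p = 3.33e-06).

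Between the mutants, 1 of 10 genes was called in Clrn1-/-Clrn2-/- against Clrn1-/- mice, Cacna1c, where 7.23% of all tested genes were called. By the adjusted p alone, 4 passed, all downwards (Cacna1a, Cacna1c, Cacna2d3 and Cacnb4, against 30.4% of all genes). Against Clrn2-/- mice edgeR called 0 of 10 (5.1% of all genes), with 5 at an unadjusted p under 0.05 and 0 called by limma-voom or DESeq2. There 4 passed the adjusted p, Cacna2d1 upwards and Cacna1a, Cacna2d3 and Cacnb4 downwards (27.6% of all genes).

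Between Clrn1-/- and Clrn2-/- mice edgeR called 0 of 10 (4.73% of all genes), with 6 at an unadjusted p under 0.05 and 0 by limma-voom or DESeq2. By the adjusted p, 5 passed, and Cacna1a, Cacna1c, Cacna1e, Cacna2d1 and Cacnb4 were all higher in Clrn1-/- mice (18.5% of all genes). For Cacnb4 that difference was 0.24 ± 0.05 (edgeR adjusted p = 0.00286).

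The interaction asked whether the change in the double mutants departed from the sum of both single mutants' changes on the log2 scale. None of the 10 genes was called by edgeR, limma-voom or DESeq2 (5.5% of all genes with edgeR), with 5 at an unadjusted p under 0.05. Past the adjusted p alone were 2 of 10, Cacna1c at -0.56 ± 0.11 (edgeR adjusted p = 0.00199) and Cacnb4 at -0.44 ± 0.07 (edgeR adjusted p = 0.000465), against 17.4% of all genes. In both, Clrn1-/- mice were above wild-type and the double mutants were below it. Cacna1c passed 1.5-fold, and so was called, with library size alone and when any 1 of 7 libraries was left out, namely Clrn1-/- replicate 1, Clrn2-/- replicate 2 or 3, Clrn1-/-Clrn2-/- replicate 1 or 3, and wild-type replicate 1 or 2.

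The other genes of the family were taken from a list of pore-forming, beta, alpha2delta and gamma subunits and of proteins that bind the channels. Cacna1d, for the hair cell channel Cav1.3, was at 58.0, 55.4 and 56.5 CPM in wild-type, 91.3, 102 and 98.1 in the Clrn1-/-, 79.6, 75.35 and 82.4 in the Clrn2-/- and 72.7, 76.7 and 76.0 in double mutant libraries. All 9 mutant libraries were above wild-type, with log2 fold changes of 0.78 ± 0.05, 0.48 ± 0.05 and 0.41 ± 0.05 (edgeR adjusted p = 1.55e-08, 1.24e-05 and 7.01e-06), in the opposite direction to Cacna1h. Cacna1i, for the remaining T-type channel, was at 0.235 ± 0.0803 CPM in the double mutants and 0.532 ± 0.207 in wild-type mice (log2 fold change -1.17 ± 0.40, edgeR adjusted p = 0.0314). Cacna1f and Cacna1s did not pass the filter, with 0 to 4 and 1 to 10 counts per library.

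Of the other beta genes, Cacnb1, Cacnb2 and Cacnb3, 2, 3 and 3 of 3 fell in Clrn1-/-, Clrn2-/- and double mutant mice by the adjusted p. For comparison, 26.9%, 14.2% and 37.0% of all tested genes passed it in either direction. Cacnb3 was called in the double mutants, at 92.3 ± 2.85 CPM beside 142 ± 10.97 in wild-type mice (log2 fold change -0.62 ± 0.06, edgeR adjusted p = 3.45e-07). In Clrn1-/- mice Cacnb4 was thus the beta gene that rose, and Cacnb1 and Cacnb3 fell, with log2 fold changes of -0.22 ± 0.05 and -0.25 ± 0.05 (edgeR adjusted p = 0.00698 and 0.00274). Cacna2d4, the remaining alpha2delta gene, did not pass the test in any mutant, with log2 fold changes of 0.42 ± 0.21, 0.24 ± 0.21 and 0.09 ± 0.21 (edgeR adjusted p = 0.15, 0.498 and 0.789).

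Of the gamma subunit genes, 5 of 8 were tested. In Clrn1-/-, Clrn2-/- and Clrn1-/-Clrn2-/- mice 2, 2 and 5 of 5 fell, with none rising. Beside this, 26.9%, 14.2% and 37.0% of all tested genes passed the adjusted p in either direction. Most of the gamma subunit proteins are known to serve AMPA receptors rather than calcium channels. Cacng5 was at 14.5 ± 0.58 CPM in the double mutants and 25.8 ± 2.05 in wild-type mice (log2 fold change -0.84 ± 0.09, edgeR adjusted p = 3.39e-06). Cacng2, for stargazin, was at 46.9 ± 1.50 and 78.4 ± 3.26 CPM (-0.74 ± 0.06, edgeR adjusted p = 1.36e-07).

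Of 17 genes for proteins that bind or regulate the channels, 2, 2 and 3 rose and 6, 4 and 10 fell in Clrn1-/-, Clrn2-/- and Clrn1-/-Clrn2-/- mice by the adjusted p, beside 26.9%, 14.2% and 37.0% of all tested genes in either direction. The RGK proteins are small GTP-binding proteins known to inhibit high-voltage-activated channels through the beta subunit, and members of this group moved in opposite directions. Rem1 rose in the double mutants alone (log2 fold change 0.45 ± 0.17, edgeR adjusted p = 0.0489), and Rrad did not pass in any mutant. Rem2 was at 1.31 ± 0.227 CPM in wild-type, 0.590 ± 0.165 in the Clrn1-/-, 0.447 ± 0.207 in the Clrn2-/- and 0.514 ± 0.0342 in double mutant mice, and its log2 fold changes of -1.14 ± 0.28, -1.55 ± 0.29 and -1.35 ± 0.29 were called in all 3 (edgeR adjusted p = 0.00664, 0.00213 and 0.00155). Gem was at 1.99 ± 0.221, 3.53 ± 0.3, 2.60 ± 0.566 and 4.09 ± 0.475 CPM in the same order, called upwards in Clrn1-/- and Clrn1-/-Clrn2-/- mice (0.82 ± 0.17 and 1.04 ± 0.16, edgeR adjusted p = 0.00165 and 0.000105), with 0.38 ± 0.17 in Clrn2-/- mice (edgeR adjusted p = 0.156).

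Stac2, for an adaptor protein of L-type channels, was at 324 ± 21.8 CPM in wild-type and 200.4 ± 8.27 in double mutant mice (log2 fold change -0.69 ± 0.06, edgeR adjusted p = 1.28e-07). Rims1, for an active zone protein that binds presynaptic calcium channels, was called in the double mutants as well (-0.62 ± 0.06, edgeR adjusted p = 1.07e-06), and Stac3 was called in Clrn1-/- mice (-0.62 ± 0.18, edgeR adjusted p = 0.0204) from 1.86 ± 0.152 CPM in wild-type mice. Summed neuron markers, at 68.6 ± 0.757% of the wild-type mean in the double mutants, are to be read beside the falls of Cacnb3, Cacng2, Cacng5, Stac2 and Rims1 there, and their part in these was not tested.

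**Figure D5:**
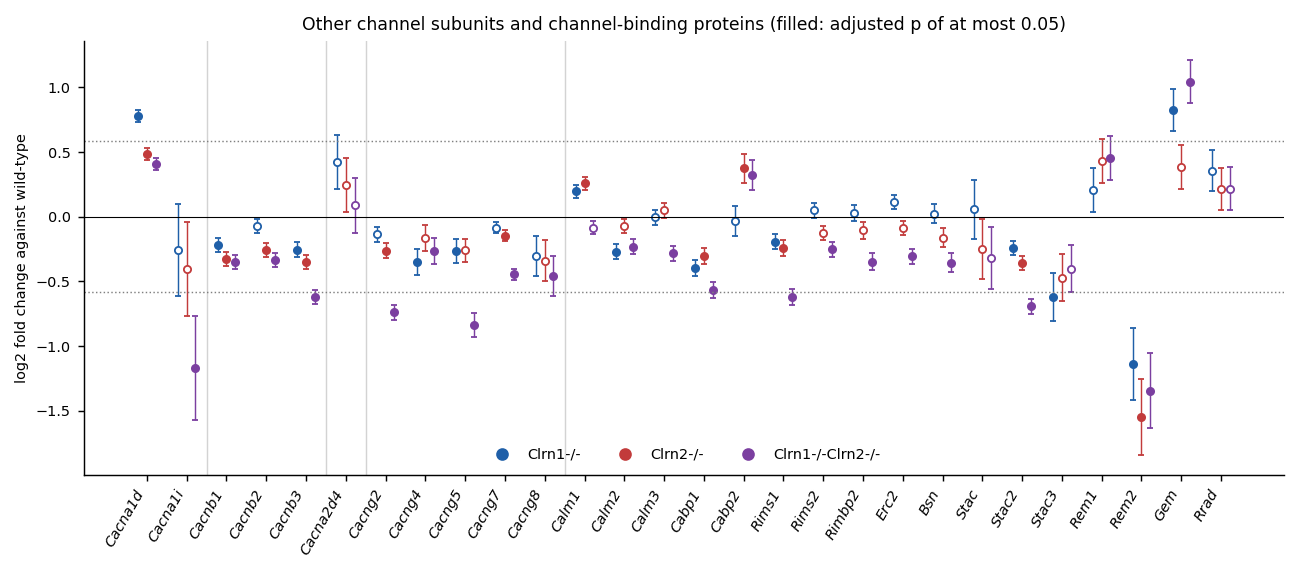
Log2 fold change against wild-type with its SE for the other tested calcium channel subunit genes and channel-binding proteins in the 3 mutants, filled where the edgeR adjusted p was at most 0.05, with dotted lines at 1.5-fold and grey lines between pore-forming, beta, alpha2delta, gamma and channel-binding genes. Cacna1d lies above 0 in all 3 mutants, Rem2 at -1.14 to -1.55, and the 3 beta and 5 gamma genes at or below -0.07.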

How the data were processed

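RNA of the organ of Corti was sequenced with a strand-specific polyA kit in 12 libraries. Gene counts were made by the authors using STAR and GRCm38.p6 (submitters' processing notes) with Gencode M24 (study methods). The deposited counts carry no normalization. The column in the kit's orientation was used, and the 13.5% to 15.8% not assigned to a gene were left out. Positions and exon lengths came from Gencode M21.

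Genes kept by filterByExpr (minimum count 10) were fitted with edgeR 4.0.16 in R 4.3.3 over all 12 libraries, with TMM scaling, genotype as the term, the quasi-likelihood test and p-values adjusted by Benjamini-Hochberg over 19052 genes. SEs were derived from the test statistic. The fits were tested on simulated data.

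The members and lists were chosen with earlier results of these data known. Named genes were the 10 members, the 6 other subunits or binding proteins with the largest called changes against wild-type, Cacna1d, Clrn1, Clrn2 and the 3 genes most like Cacna1h. Cacnb1, Cacnb2, Cacnb3, Cacna2d4, Rims1, Stac3, Rem1, Rrad and the genes below the filter were named after their values were seen. The marker genes Otog, Otogl, Tectb, Ceacam16, Pvalb and Ryr1 were named without values.

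The alternatives used limma-voom 3.58.1, DESeq2 1.42.0, scaling by library size only, other filters (none, or FPKM 0.1 reached in any library), fits restricted to the genotypes compared, a replicate block, calls by adjusted p without a fold limit, counts without strand, and omission of each library. Over 12453 genes, deviations of same-numbered libraries correlated above 0.1 in 7 of 18 pairs. All 3 pairs did so for Clrn1-/- and wild-type (0.269, 0.126 and 0.105) and in no other comparison. Values of like size but mixed sign occurred elsewhere, as in double mutants and wild-type (0.255, -0.277 and 0.301). Whether the numbers pair libraries was thus not settled. The main fit held no replicate block, and the block alternative covered all 4 genotypes.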

Additional observations from a re-analysis of the deposited data

Results flagged for a closer look

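The effect of losing clarin-2 differed with the Clrn1 genotype for Cacna1c, with an interaction of -0.56 on the log2 scale (edgeR adjusted p = 0.00199). Without clarin-2 the level fell from 21.8 to 13.4 CPM in mice that also lacked clarin-1 and went from 16.5 to 14.9 CPM in mice that had it. For Cacnb4 the interaction was -0.44 (edgeR adjusted p = 0.000465), with levels of 123.5 and 88.85 CPM in the first pair and 107 and 104 CPM in the second.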

How the results depend on the processing

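Cacna1h was called in each of the 3 mutants under every alternative and without any 1 library, and Cacna1c in the double mutants against Clrn1-/- mice likewise. Without the fold minimum the counts of the 10 genes were 5 for Clrn1-/-, 3 for Clrn2-/- and 8 for Clrn1-/-Clrn2-/- against wild-type, 4 for the double mutants against Clrn1-/-, 4 against Clrn2-/-, 5 between the single mutants and 2 for the interaction, because that setting drops a criterion. With library size alone the interaction count was 1, and leaving out 1 library gave 0 to 1 for it and 0 to 1 between the single mutants; the cause was not tested. The fit with a replicate block gave 1 against wild-type in each mutant, and it changed no other call; the interaction of Cacna1h then had an adjusted p of 0.0479, below the 1.5-fold minimum. Of 70 member comparisons, 31 passed the adjusted p, and 5 of these missed it under at least 1 alternative, while 12 of the other 39 passed it under at least 1.

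Changes of sign occurred in 12 of the 70 comparisons, and the smallest adjusted p of a value with the changed sign was 0.555. With library size alone Cacna2d3 in Clrn1-/- was at 0.0253, and Cacna2d1 and Cacnb4 in Clrn2-/- mice were at 0.0062 and 0.0023 against wild-type, and the interaction of Cacna2d1 was -0.0039. Between the double mutants and Clrn1-/- mice, Cacna2d2 was at -0.0013 by limma-voom, -0.0031 by DESeq2, -9.65e-05 by library size, -0.0055 without the filter and -0.0059 unstranded, and Cacna2d1 at -0.0019 without the filter. Cacna1h between the single mutants was at -0.0022 without the filter and -0.0028 with the FPKM filter, and the interaction of Cacna1a was 0.0041 unstranded. Leaving out 1 library, the values against wild-type ranged from -0.0554 to 0.0324 for Cacna2d3 in Clrn1-/-, from -0.0771 to 0.052 for Cacna2d1, -0.0209 to 0.1346 for Cacna2d3 and -0.0641 to 0.032 for Cacnb4 in Clrn2-/-, and from -0.1683 to 0.0451 for Cacna1e in double mutant mice. For the double mutants against Clrn1-/- mice the ranges were -0.0762 to 0.0515 for Cacna2d1 and -0.0353 to 0.0311 for Cacna2d2, and against Clrn2-/- mice -0.0267 to 0.1289 for Cacna1e. Between the single mutants they were -0.1084 to 0.0621 for Cacna1g and -0.0675 to 0.0462 for Cacna1h, and for the interaction -0.1264 to 0.0023 for Cacna1a and -0.0546 to 0.0731 for Cacna2d1.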

Other observations

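Reads on the strand opposite to the gene, which the comparisons left out, made up 3.26% to 5.07% of the stranded counts of Cacnb4, 1.45% to 3.41% for Cacna1c and 0.75% to 1.98% for Cacna1a, and at most 1.18% for the other 7 genes. Cacnb4 overlaps with 3 annotated genes on the opposite strand, and its unstranded counts were 0.757 to 0.784 of those in the orientation of the kit. Of the gamma subunit genes, Cacng1, Cacng3 and Cacng6 were left out by the filter, with at most 5, 2 and 2 counts per library.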
